A study of Mus musculus with 32 samples.

Results

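The comparison described here was that of 30-month-old with 10-month-old neuromuscular junction (NMJ) regions of the mouse *tibialis anterior* (TA) muscle. It was defined by the age and the region in the sample titles, which gave 8 libraries labelled 30m NMJ and 8 labelled 10m NMJ, or 16 of the 32 libraries of the series. The other 16 libraries came from regions away from the synapse (xNMJ) at the same ages. All mice were wild-type males of the strain C57BL/6JRj that were caged singly and fed the diet AIN93M, the older mice for longer than the younger ones, so that age and time on the diet cannot be told apart. Synaptic regions had been recognised in cross sections with α-bungarotoxin, a toxin that binds the muscle acetylcholine receptor, cut out by laser and pooled within a sample before cDNA was made from polyadenylated RNA with the SMART-Seq v4 kit. The labels do not name the animals, so p values measure the spread between these libraries, and each library is a mixture of synaptic muscle fiber, terminal Schwann cells, nerve ending, capillaries and connective tissue.

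The NMJ is the contact at which a motor neuron drives a muscle fiber. The nerve releases agrin, which acts through LRP4 and the kinase MuSK to cluster acetylcholine receptors by way of rapsyn, and a specialised basal lamina of laminins and collagens holds nerve and fiber together. In old muscle, NMJs are known to fragment and some fibers lose their nerve, which in young muscle switches on genes such as those for the fetal receptor subunit and myogenin.

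Total counts, the number of reads assigned to genes, ran from 7080227 to 16516788 in 10m NMJ (median 9605869) and from 6703228 to 16422527 in 30m NMJ (median 9825357). The ages did not differ detectably in total counts (exact permutation test, two-sided; p = 0.625, or 0.781 after adjustment over 5 library measures). Chrne, the adult epsilon subunit of the acetylcholine receptor, averaged 277 ± 88.0 CPM, counts scaled to the library total (SD, n = 8), in 10m NMJ and 290 ± 113 in 30m NMJ, with factors set over all 32 libraries, against 0.267 ± 0.495 in 10m xNMJ. All 16 NMJ libraries held at least 139 CPM of Chrne, so each carried the marker of the labelled region. The library 10m NMJ replicate 8 was labelled with a mean insert size of 52 bp, against 101 to 131 bp in the other 15.

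No single gene passed the test between the ages. In edgeR's quasi-likelihood test, 0 of 12932 genes (0%) had a Benjamini-Hochberg adjusted p under 0.05, and the smallest adjusted p was 0.716. An unadjusted p under 0.05 was reached by 717 genes (5.54%), where an even spread of p values would give 646.6, and of these 303 (2.34%) were higher and 414 (3.2%) were lower at 30 months. DESeq2 called 2 genes and limma called 0 with library quality weights, 0 on log2(TPM + 1) and 1 on log2(TPM + 0.1). All values by gene below are therefore descriptions of these 16 libraries, and none of them is a change that passed correction in edgeR. In bulk samples, fewer cells of a type and less RNA per cell cannot be told apart.

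The fold changes were centred close to 0. The median log2 fold change over the 12932 genes was 0.00, with quartiles of −0.26 and 0.26, and 6503 genes (50.3%) were higher against 6429 (49.7%) lower. The 95% interval of a gene's log2 fold change reached to either side by a median of 0.80 over all genes, 0.38 over the 100 most abundant and 1.31 over the 3217 genes under 5 CPM. A difference in a single weakly expressed gene was thus detectable only if it was large. On the log2(TPM + 1) scale, where TPM are the authors' levels scaled for transcript length and library total, the median of all genes was 0.11, so list medians on that scale are to be read against this shift.

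Only 2 genes (0.0155%) had no overlap between the 8 libraries of each age. Amotl2, an angiomotin family protein of cell junctions and Hippo signalling, ranged from 4.78 CPM through a median of 6.83 to 8.17 at 10 months and from 10.5 through 15.1 to 26.7 at 30 months (log2 fold change 1.38 ± 0.27, SE; adjusted p = 0.716 in edgeR). Amotl2 (ENSMUSG00000032531) lies on chromosome 9 of GRCm38 from 102716672 to 102733418 on the plus strand. Zbtb34, a zinc finger gene named here after its values were seen, ranged from 2.68 to 7.04 CPM at 10 months and from 0.346 to 2.26 at 30 months (−1.58 ± 0.44). Amotl2 was one of the 2 genes called by DESeq2 (adjusted p = 0.000527), together with the metallothionein gene Mt2 (adjusted p = 0.00773).

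Genes were also taken by family, and no list was tested as a set. The lists were chosen with earlier results of these data known. Members of a list were measured in the same libraries, so a count of members is not a count of independent samples. Lists of 46 pathways, gene families and cell types were each summarised by the number of members higher and lower and by the median log2 fold change of the tested members. The plot of list medians gives all 46 beside the quartiles of all tested genes. Collagens, heat shock proteins, immediate early genes and endothelial markers lay at the lower end, and interferon-responsive, red blood cell, complement and denervation-responsive genes at the upper end.

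**Figure D1:**
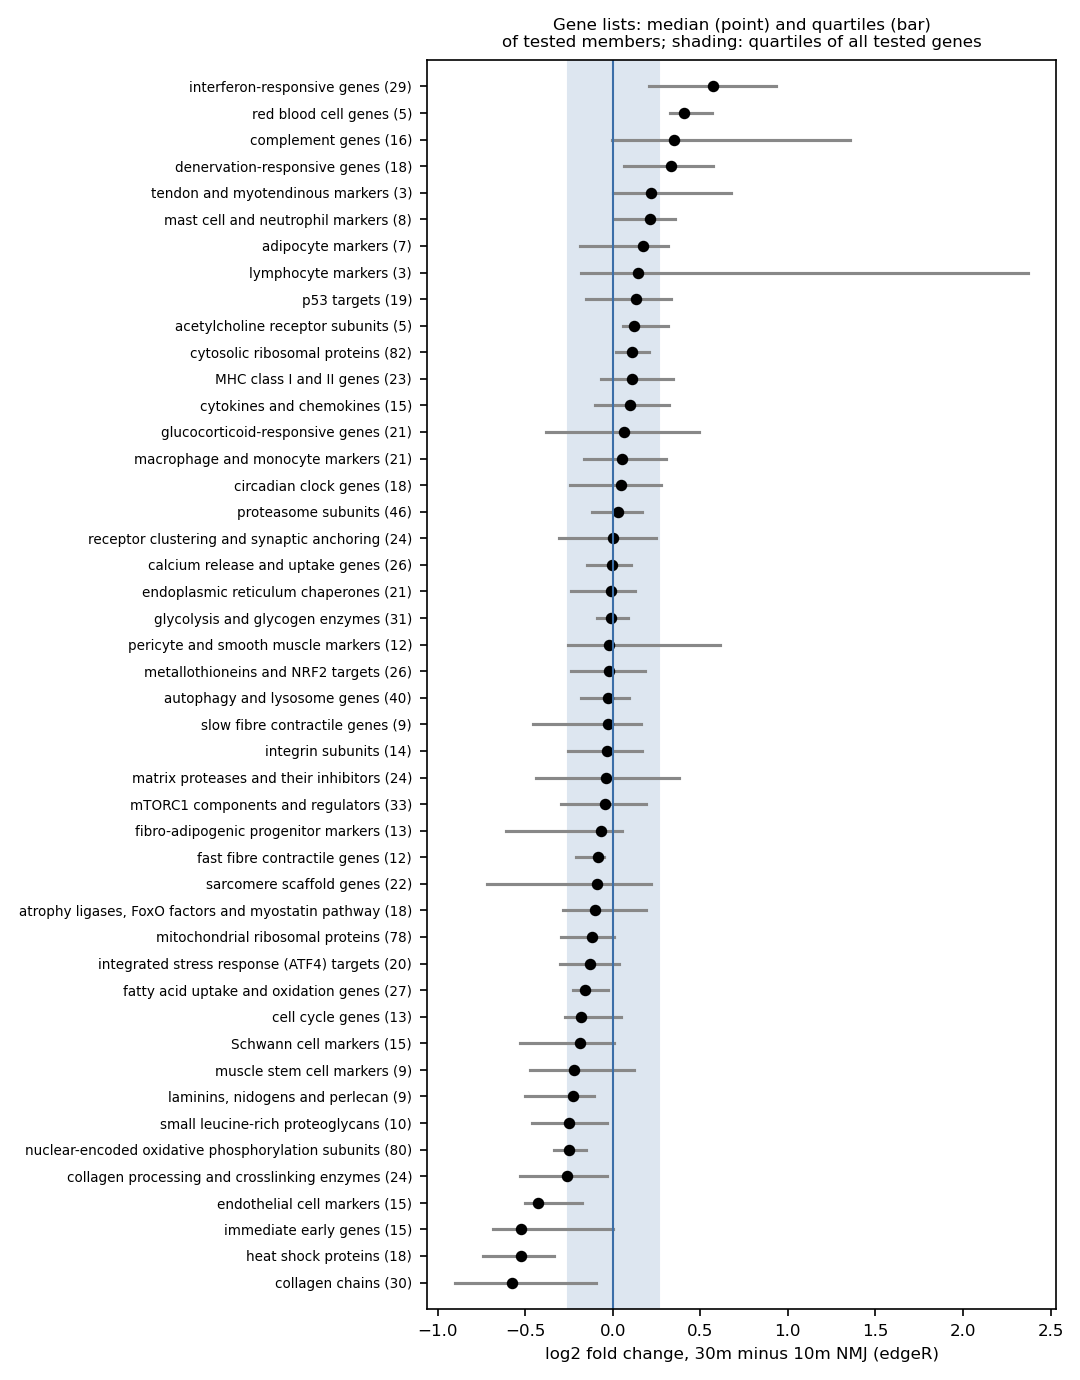
Median log2 fold change (30m minus 10m NMJ, edgeR) of the tested members of 46 gene lists, with their number in parentheses, the quartiles of the members as bars and the quartiles of all 12932 genes as shading. Medians ran from −0.58 for collagen chains to 0.57 for interferon-responsive genes.

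Heat shock proteins and their partners, chaperones that hold or refold proteins, were lower at 30 months in each of the 18 members tested, 2 of which, Hspd1 and Hspe1, work in mitochondria. Their median log2 fold change was −0.53 (−0.61 for the 16 others), and 8 of them had an unadjusted p under 0.05 (for all genes 3.2% were lower with such a p). The mean log2 CPM of the members ran from 6.87 through a median of 7.41 to 8.43 in 10m NMJ and from 6.64 through 6.94 to 7.37 in 30m NMJ. All 8 libraries of 30m NMJ lay below the 10m median, 2 of them below every 10m library. Without 10m NMJ replicate 7, the highest library, the median was −0.29, with 17 of 18 members lower and 3 with a p under 0.05, and on the log2(TPM + 1) scale the median was −0.24. Without any 1 of 10m NMJ replicate 2 and 30m NMJ replicates 1 and 7, 5 members had such a p. With the replicate block 3 members did (median −0.38, 17 of 18 lower), and on the log2(TPM + 1) scale 2 did.

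Among the large chaperones, Hsph1, an Hsp110 protein that exchanges the nucleotide of Hsp70, ranged from 78.8 through 137 to 222 CPM at 10 months and from 52.98 through 77.0 to 137 at 30 months (log2 fold change −0.84 ± 0.22). All 8 older libraries lay below the 10m median. Its relative Hspa4l had medians of 33.9 and 12.3 CPM (−1.15 ± 0.35), again with 8 of 8 libraries below. Dnaja4, an Hsp40 co-chaperone outside the list, went from 23.7 through 55.5 to 217 CPM to 13.1 through 30.1 to 40.1 (−1.44 ± 0.38). Hsph1 lies on chromosome 5 of GRCm38 from 149614287 to 149636376 on the minus strand, and Dnaja4 on chromosome 9 from 54698873 to 54716315 on the plus strand.

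The small heat shock proteins Cryab and Hspb1, which bind unfolding proteins and are abundant in muscle, were named after their values were seen. Cryab ranged from 604 through 1443 to 13231 CPM at 10 months and from 509 through 792 to 1833 at 30 months (−1.51 ± 0.52, or −0.47 without 10m NMJ replicate 7), and Hspb1 from 99.8 through 252 to 2698 CPM and from 66.0 through 166 to 349 (−1.67 ± 0.58, or −0.44 without that library). The highest value of both genes was that of 10m NMJ replicate 7. At the other end, the mitochondrial chaperonin Hspd1, also chosen after its values were seen, was at medians of 144 and 133 CPM (−0.14 ± 0.18, or −0.06 without that library).

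The heat shock factor HSF1 is known to bind repeats of the pentamer nGAAn, so the promoters of the list were searched for GAANNTTC, which reads the same on both strands. In the RefSeq promoters of GRCm38.p6, within the 250 bases before the start, 5 of the 13 list genes that could be matched (38.5%) held it. Of the matched tested genes, 618 of 9818 (6.29%) did. Counted by promoter, it was held by 5 of 20 of the list (25%), 5.14% of those of tested genes and 6.69% of all 32851. The stretches that hold it are shown for 4 of the 5 genes because all members of the list tested were lower, with the matched letters in capitals. The fifth gene, Hspe1, has its match in the stretch given for Hspd1, whose start it faces.
Dnaja1, chr4:40722324-40722371, plus strand: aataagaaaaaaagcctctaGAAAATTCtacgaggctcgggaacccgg
Hspb1, chr5:135887782-135887849, plus strand: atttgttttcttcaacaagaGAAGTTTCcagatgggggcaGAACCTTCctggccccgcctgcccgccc
Hspb6, chr7:30553161-30553208, plus strand: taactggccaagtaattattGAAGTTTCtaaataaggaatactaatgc
Hspd1, chr1:55088044-55088091, minus strand: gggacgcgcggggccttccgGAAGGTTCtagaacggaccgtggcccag
These 4 genes had log2 fold changes of −0.68 for Dnaja1, −1.67 for Hspb1 (−0.44 without 10m NMJ replicate 7), −0.25 for Hspb6 and −0.14 for Hspd1 (−0.06 without that library). A match describes the letters of the window and is not evidence of binding.

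Collagen chains were the list with the lowest median. Of 43 chains, 30 were tested, 26 of them were lower and 4 higher at 30 months (median log2 fold change −0.58), and 9 were lower with an unadjusted p under 0.05. The mean log2 CPM of the members ran from 3.38 through 3.72 to 3.99 at 10 months and from 2.32 through 3.26 to 3.75 at 30 months, with 7 of 8 older libraries below the 10m median and 5 below every 10m library. Their summed level was 953 ± 127 CPM (SD, n = 8) at 10 months and 638 ± 155 at 30 months. The median stayed below 0 in each of 27 alternatives and was closest to 0 on the log2(TPM + 1) scale (−0.27, with 23 of 30 lower).

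The fibrillar collagens of the interstitial matrix were among the 9. Col1a2, the alpha 2 chain of type I collagen, ranged from 86.9 through 117 to 170 CPM at 10 months and from 36.8 through 69.2 to 110 at 30 months (−0.74 ± 0.19, adjusted p = 0.72 in edgeR). Col3a1, the chain of type III collagen, ranged from 95.5 through 145 to 186 CPM and from 9.81 through 48.3 to 159 (−1.11 ± 0.37), and Col5a3, a type V chain, from 23.6 through 41.0 to 70.0 and from 6.19 through 19.9 to 35.2 (−1.16 ± 0.32). All 8 older libraries lay below the 10m median for Col1a2 and Col5a3, and 7 of 8 for Col3a1. Col1a2 lies on chromosome 6 of GRCm38 from 4504814 to 4541544 and Col3a1 on chromosome 1 from 45311538 to 45349706, both on the plus strand, and Col5a3 on chromosome 9 from 20770050 to 20815067 on the minus strand.

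Chains of the basal lamina and its attachment were lower as well, and are named after their values were seen. Col4a1 and Col4a2, the main type IV chains of basal laminae, had log2 fold changes of −0.53 ± 0.20 and −0.68 ± 0.24. The type VI chain Col6a2 had medians of 39.9 and 16.0 CPM (−1.09 ± 0.31), and Col15a1, a chain that links basal lamina to matrix, 60.4 and 28.3 CPM (−0.96 ± 0.29). Col13a1, a transmembrane collagen that is known from the NMJ, did not share the difference, at −0.05.

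The genes that make and surround collagen leaned the same way with smaller medians. Of 24 collagen processing and crosslinking enzymes 18 were lower (median −0.26), with Crtap, a part of the prolyl 3-hydroxylase complex, at −1.45 ± 0.57 and the lysyl hydroxylase Plod1 at −0.59 ± 0.23. Of 9 laminins and nidogens 8 were lower (median −0.23), with Lamc1, the common laminin gamma chain, at −0.50 ± 0.24, and none had a p under 0.05. Of 10 small leucine-rich proteoglycans 8 were lower (median −0.25), with Ogn at −0.69 ± 0.33. The medians nearest 0 among the alternatives were −0.10 for the enzymes (log2(TPM + 1)), −0.08 for the laminins (a mean of at least 10 CPM) and −0.08 for the proteoglycans (no filter), and without 1 library they were −0.22, −0.14 and −0.12. The 24 matrix proteases and inhibitors (median −0.04, 11 higher and 13 lower) and the 14 integrin subunits (median −0.03, 6 higher and 8 lower) lay at the background, and the signs of these medians flipped with library totals only and on the log2(TPM + 1) scale. Among them Mmp2, a gelatinase, was at −0.81 ± 0.31, Adamts20 at 1.78 ± 0.73, Itgb6 at 1.11 ± 0.32 and Itga1, a collagen receptor subunit, at −0.49 ± 0.22.

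**Figure D2:**
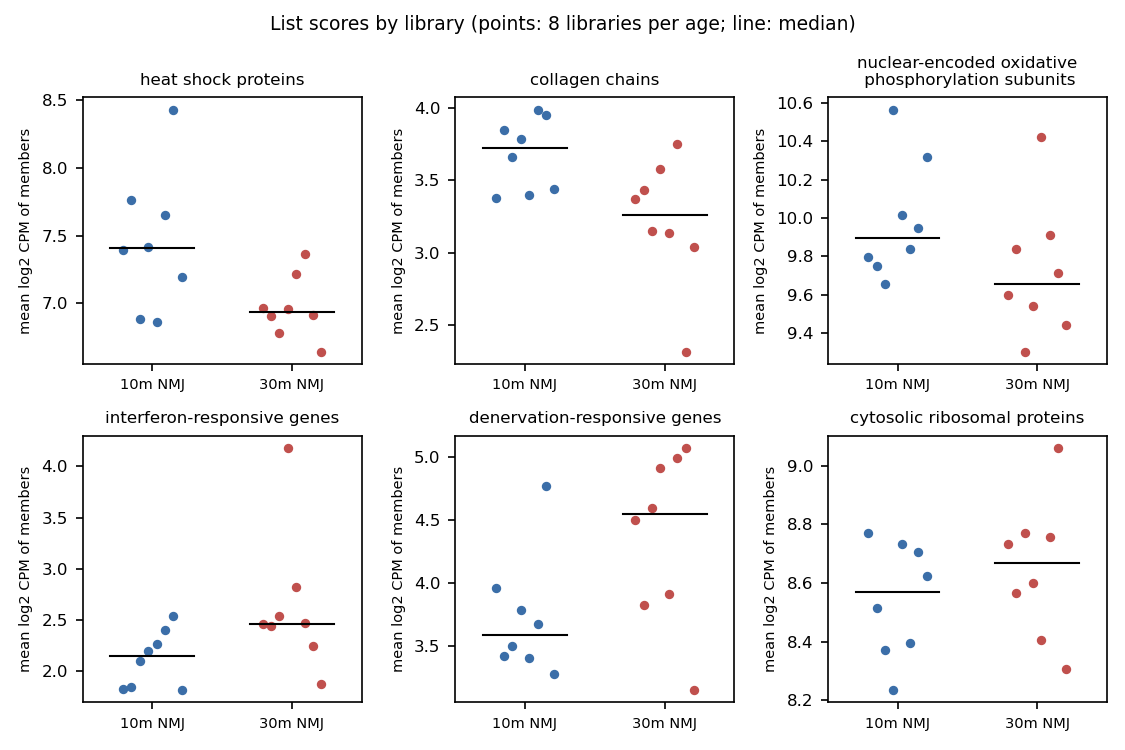
Mean log2 CPM of the tested members of 6 lists in each of 8 libraries at 10 months (blue) and 8 at 30 months (red), with lines at the medians and a separate linear axis for each list. Heat shock proteins lay below the 10m median in all 8 older libraries and collagens in 7, while 1 library at 30 months (4.18) stood above the rest for interferon-responsive genes.

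Nuclear-encoded subunits of oxidative phosphorylation, the respiratory chain and ATP synthase, were lower in 74 of 80 genes tested. Their median log2 fold change was −0.25, and 8 had an unadjusted p under 0.05. Such a p was reached by 34 with library quality weights, by 5 with library totals only or the replicate block, and by 4 on the log2(TPM + 1) scale. By complex, 35 of 36 subunits of complex I (median −0.29), 3 of 4 of complex II (−0.07), 8 of 10 of complex III with cytochrome c (−0.26), 14 of 14 of complex IV (−0.26) and 14 of 16 of complex V (−0.17) were lower. The mean log2 CPM of the list ran from 9.66 through 9.89 to 10.6 at 10 months and from 9.30 through 9.66 to 10.4 at 30 months, and 6 of 8 older libraries lay below the 10m median. The older library with the highest score was 30m NMJ replicate 5, without which the median was −0.38, with 76 of 80 lower and 45 with a p under 0.05. Without 10m NMJ replicate 4 the median was −0.15, with 4 such genes, and 5 such genes were left without any 1 of 10m NMJ replicates 5 and 8 and 30m NMJ replicates 1 and 3.

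Ndufa1, a complex I subunit, ranged from 1630.3 through 2464 to 4438 CPM at 10 months and from 1066 through 1654 to 2193 at 30 months (−0.69 ± 0.19, adjusted p = 0.72 in edgeR), with 8 of 8 older libraries below the 10m median. Uqcr11 of complex III was at −0.54 ± 0.18, with 7 of 8 below. Short and abundant genes other than cytosolic ribosomal protein genes were often lower as well. Among 498 abundant short genes (at least 100 TPM, transcripts of up to 1000 bases) 68.9% were lower (median −0.11), and among the 347 of these that encode no oxidative phosphorylation subunit or ribosomal protein 72% were lower (median −0.11). Over all genes the median was −0.07 for transcripts of up to 600 bases and 0.03 for those over 3000. The part of length in the result was not tested.

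Other metabolic lists were closer to 0. Of 78 mitochondrial ribosomal proteins 57 were lower (median −0.12), 6 of them with a p under 0.05, among them Mrps25 (−0.50 ± 0.19) and Mrpl58 (−0.63 ± 0.26). Without 30m NMJ replicate 5 these numbers were 67 and 19, and without 10m NMJ replicate 4 they were 46 and 1, and 3 genes had such a p without 30m NMJ replicate 3 and 2 without replicate 8 of either age. Of 27 genes of fatty acid uptake and oxidation 21 were lower (median −0.16, or −0.06 without 10m NMJ replicate 4), with Fabp3, the muscle fatty acid binding protein, at medians of 853 and 514 CPM (−0.73 ± 0.29). The 31 enzymes of glycolysis and glycogen turnover were evenly placed, 14 higher and 17 lower (median −0.01, a sign that flipped with library totals only and on the log2(TPM + 1) scale), and the 95% interval of 18 of them lay within 1.5-fold of no change.

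Cytosolic ribosomal proteins showed the opposite lean within narrow limits. Of 82 genes 67 were higher at 30 months (median log2 fold change 0.11), 2 with a p under 0.05 (for all genes 2.34% were higher with such a p), and 64 had an interval within 1.5-fold of no change. Their summed level was 34962 ± 4268 CPM (SD, n = 8) at 10 months and 37878 ± 6529 at 30 months. Rpl3 had medians of 79.8 and 127 CPM (0.54 ± 0.24) and Rpl13 of 577 and 692 (0.35 ± 0.15), with all 8 older libraries above the 10m median for both. Without 30m NMJ replicate 7, whose score of 9.06 was the highest, the median was 0.05 with 54 of 82 higher, and as each library was left out, between 0 and 10 genes were higher with a p under 0.05, with the 10 found without 30m NMJ replicate 5.

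Of the systems that degrade protein, the 46 proteasome subunits had 26 higher and 20 lower (median 0.03, or below 0 with library quality weights and without 30m NMJ replicate 5 or 7) and 18 within 1.5-fold, and the immunoproteasome subunits Psmb8 and Psmb10 were at 0.80 ± 0.39 and 0.69 ± 0.29. The third, Psmb9, named after its values were seen, had the highest value of the list (0.93 ± 0.80, or 0.46 without 30m NMJ replicate 2). The 40 autophagy and lysosome genes had 18 higher and 22 lower (median −0.03, a sign that flipped with library totals only and on the log2(TPM + 1) scale) and 15 within 1.5-fold, with Map1lc3a, an LC3 protein of the autophagosome, at 0.60 ± 0.23 and Atp6v0d1, a proton pump subunit, at −0.68 ± 0.23. The 18 atrophy-related ligases, FoxO factors and myostatin pathway genes had a median of −0.10, which was between −0.12 and −0.03 as each library was left out and 0.08 on the log2(TPM + 1) scale. Foxo1, a FoxO transcription factor, was at −0.53 ± 0.25, the 1 member with a p under 0.05, and Fbxo40, a muscle ubiquitin ligase subunit, at −0.42 ± 0.21, or −0.22 without 10m NMJ replicate 7. The muscle ligase genes Fbxo32 and Trim63, looked at after the values were seen, were at −0.09 (0.08 without 10m NMJ replicate 7) and −0.47 (−0.12 without 10m NMJ replicate 1).

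Among 33 components and regulators of mTORC1, the kinase complex that couples nutrients to growth, 14 were higher and 19 lower (median −0.04). The median was above 0 on the log2(TPM + 1) scale and without 10m NMJ replicate 4 or 6 or 30m NMJ replicate 2. Akt1, an upstream kinase, ranged from 1.23 through 7.32 to 18.9 CPM at 10 months and from 7.54 through 19.5 to 30.1 at 30 months (1.253 ± 0.418), with all 8 older libraries above the 10m median. Fnip1, a folliculin partner, had medians of 122 and 84.1 CPM (−0.51 ± 0.21), with all 8 below.

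Interferon-responsive genes had the highest median of all lists. Of 29 tested, 23 were higher at 30 months (median 0.57) and 5 had an unadjusted p under 0.05. The score ran from 1.81 through 2.15 to 2.53 at 10 months and from 1.88 through 2.46 to 4.18 at 30 months, with 7 of 8 older libraries above the 10m median. Gbp2, a guanylate-binding GTPase, had medians of 0.804 and 3.02 CPM (2.27 ± 0.80, or 1.43 without 30m NMJ replicate 4), and Parp14, an ADP-ribosyltransferase, of 6.82 and 13.5 (0.97 ± 0.37). The list rested to a large part on 30m NMJ replicate 4, without which the median was 0.18, with 18 of 27 higher and 0 with a p under 0.05, and 3 genes had such a p without any 1 of 10m NMJ replicates 1, 3, 4, 5 and 7.

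Complement genes were higher in 12 of 16 (median 0.35), 3 with a p under 0.05. C3, the central complement component, ranged from 0.0640 through 7.38 to 19.5 CPM at 10 months and from 4.15 through 30.8 to 109 at 30 months (2.35 ± 0.66), with 7 of 8 older libraries above the 10m median. The inhibitor Clu, clusterin, was lower, with medians of 104 and 50.1 CPM (−0.98 ± 0.31) and all 8 below. Without 30m NMJ replicate 7 the median of the list was 0.12, and without 10m NMJ replicate 7 it was 0.54. Of 23 MHC genes 15 were higher (median 0.11, or 0.01 to 0.20 as each library was left out), with H2-Q7 at 0.84 ± 0.33 and H2-T23 at −0.50 ± 0.15. These are 2 genes of a family of near-identical copies whose reads cannot be placed with certainty.

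None of the 5 acetylcholine receptor subunits had an unadjusted p under 0.05 in edgeR. The acetylcholine receptor subunits were Chrna1 at 0.12 ± 0.18, Chrnb1 at 0.31 ± 0.17, Chrnd at −0.15 ± 0.28, Chrne at 0.06 ± 0.23 and the fetal subunit Chrng at 0.55 ± 0.74. Chrna1 had medians of 709 and 707 CPM and Chrne of 302 and 294, and in both genes the libraries of the 2 ages overlapped over most of their range. Chrna1 was at 0.02 without 30m NMJ replicate 5. The sign of Chrnd flipped on the log2(TPM + 1) scale, that of Chrne flipped with library quality weights, and Chrng was at −0.04 without 30m NMJ replicate 4.

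In the agrin pathway and the synaptic scaffold, 12 of 24 genes were higher and 12 lower (median 0.00), 1 in each direction with an unadjusted p under 0.05. Musk, the receptor kinase, ranged from 20.8 through 39.7 to 77.9 CPM and from 37.4 through 53.8 to 107 (0.47 ± 0.28), with 7 of 8 older libraries above the 10m median, and the receptor Lrp4 was at 0.31 ± 0.42 and the clustering protein Rapsn at 0.34 ± 0.43. The genes with such a p were Syne1, a nuclear envelope protein of synaptic nuclei, at 0.55 ± 0.24, and the syntrophin Sntb1 at −2.02 ± 0.73, the latter at medians of 2.44 and 0.389 CPM. Ache, the esterase that ends transmission, ranged from 106 through 174 to 360 CPM at 10 months and from 111 through 128 to 201 at 30 months (−0.41 ± 0.20, adjusted p = 0.888 in edgeR), and Colq, its collagen tail, was at −0.24 ± 0.15, each with 6 of 8 older libraries below. Left without 1 library, Ache was at −0.23 (10m NMJ replicate 4), Colq at −0.14 (10m NMJ replicate 5), Lrp4 at 0.16 (10m NMJ replicate 8) and Rapsn at 0.00 (30m NMJ replicate 5). Etv5, an ETS factor of synaptic nuclei, was at 0.02 ± 0.16.

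**Figure D3:**
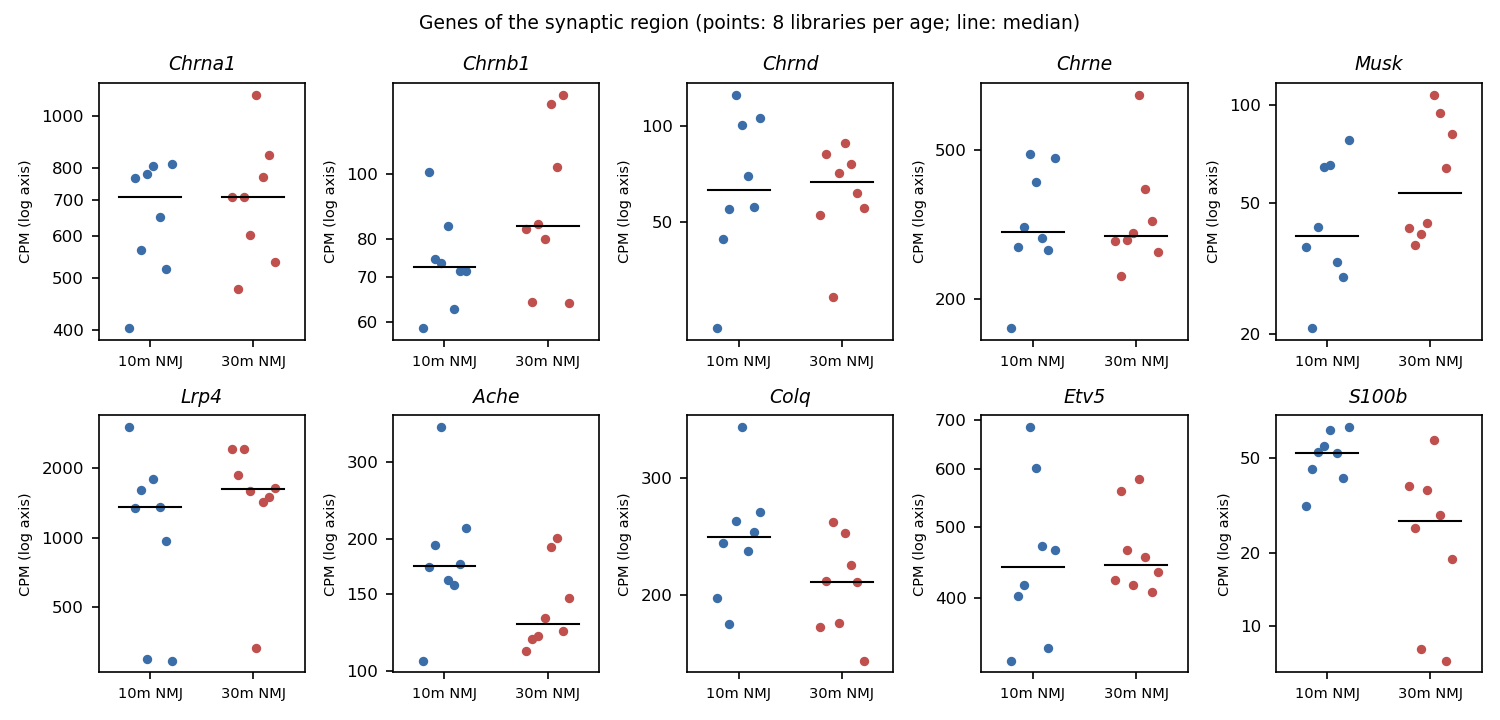
CPM on log axes of 10 genes of the synapse in 8 libraries of 10m NMJ (blue) and 8 of 30m NMJ (red), with lines at the medians. Medians were close for Chrna1 (709 and 707) and Etv5 (441 and 444), while S100b had 7 of 8 older libraries below the 10m median of 52.4.

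Denervation-responsive genes were higher in 14 of 18 (median log2 fold change 0.33), 2 with a p under 0.05, and lower in 4, down to −2.08. The summed level of the 18 was 1443.2 ± 468.9 CPM (SD, n = 8) at 10 months and 1441.5 ± 361.0 at 30 months, with Chrna1 the most abundant. The score ran from 3.28 through 3.59 to 4.77 at 10 months and from 3.15 through 4.55 to 5.07 at 30 months, so that 7 of 8 older libraries lay above the 10m median and 1 below every 10m library. Sln, sarcolipin, an inhibitor of the calcium pump SERCA, ranged from 0 through 5.60 to 27.8 CPM and from 11.2 through 35.2 to 226 (3.12 ± 0.78, adjusted p = 0.72 in edgeR), with 8 of 8 above the 10m median. Krt18, a keratin, was at 0 CPM in the median 10m library and at 17.5 in the median 30m library (3.44 ± 1.32), where 3 counts amount to 0.182 to 0.448 CPM depending on the library. Of the regulators, looked at after the values were seen, Myog was at 0.99 (0.46 without 30m NMJ replicate 6) and Runx1 at 0.58, both with p above 0.1. Myod1, also looked at then, was at 0.48 (0.34 to 1.07 as each library was left out). Without 10m NMJ replicate 2 or without 30m NMJ replicate 4 the median of the list was 0.16.

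Schwann cell markers were split. Of 15 tested, 11 were lower (median −0.19), with Mbp (−0.61 ± 0.19) and Pmp22 (−0.46 ± 0.17), both myelin proteins, below the 10m median in 8 of 8 older libraries. S100b, a marker of terminal Schwann cells, ranged from 31.4 through 52.4 to 67.1 CPM at 10 months and from 7.15 through 27.2 to 59.0 at 30 months (−0.88 ± 0.33). Ngfr, the p75 neurotrophin receptor that Schwann cells make when they lose axon contact, and Cadm2, both named after their values were seen, were higher, at medians of 0.634 and 2.27 CPM (1.86 ± 0.72) and of 1.26 and 2.30 (1.40 ± 0.58, or 0.81 without 30m NMJ replicate 4). The summed level of the markers was 557 ± 63.8 CPM (SD, n = 8) at 10 months and 441 ± 65.6 at 30 months, led by Pmp22. The median was −0.09 without 30m NMJ replicate 7 and −0.29 without 10m NMJ replicate 8.

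Among markers of the other cell types in the captured area, endothelial markers were lower in 13 of 15 (median −0.43, or −0.15 on the log2(TPM + 1) scale). Their mean log2 CPM had medians of 3.64 at 10 months and 3.30 at 30 months, with 7 of 8 older libraries below the 10m median and 6 below every 10m library. The 2 members with a p under 0.05 differed in direction, with the phosphatase Ptprb at −0.92 ± 0.32 and Vwf, von Willebrand factor, higher at 1.02 ± 0.41. The summed level of the 15 markers was 442 ± 83.7 CPM and 367 ± 68.4, with Fabp4 the most abundant, and all 15 markers in the tables passed the filter on low counts. Of 13 fibro-adipogenic progenitor markers 8 were lower (median −0.07), 3 of them with a p under 0.05. The median was 0.03 on the log2(TPM + 1) scale and −0.41 at a mean of at least 10 CPM. As each library was left out, it ran from −0.17 without 30m NMJ replicate 7 to −0.03 without 10m NMJ replicate 2. Their mean log2 CPM was 5.47 ± 0.26 (SD, n = 8) at 10 months and 5.09 ± 0.38 at 30 months, with 7 of 8 older libraries below the 10m median and 3 below every 10m library. The matrix protein Smoc2 lay below the 10m median in 8 of 8 older libraries (−0.58 ± 0.16). Dcn and Pdgfra, chosen after their values were seen, were at −0.07 (−0.17 to −0.02 as each library was left out) and −0.44. The summed level of this list was 2245 ± 294 and 1980 ± 308 CPM, and it holds 2 collagens. The part of these cells in the collagen difference was not tested.

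Pericyte and smooth muscle markers had 5 of 12 higher, with Pdgfrb at 0.94 ± 0.35 and the channel Kcnj8 at 0.92 ± 0.43. Their median of −0.02 kept its sign in 17 of 27 alternatives. It changed sign with library totals only, on the log2(TPM + 1) scale and without some single libraries of either age. Of 21 macrophage and monocyte markers 12 were higher (median 0.05, or below 0 without 30m NMJ replicate 2 or 4), at summed levels of 527 ± 151 and 525 ± 151 CPM, led by Lyz2. Cd68 in that list was at −2.96 ± 0.88, and at −1.42 without 10m NMJ replicate 7, which held 186 CPM of it against a median of 9.08. Hemoglobin genes varied from library to library, with Hba-a2 at medians of 618 and 812 CPM (0.57 ± 0.38, or 0.27 without 30m NMJ replicate 7) and its copy Hba-a1, from which its reads cannot be told apart, at 586 and 741.

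The genes with the smallest p values over all tested genes were of mixed function. Higher at 30 months were Mt2, a metallothionein that binds zinc and a member of the lists of metallothioneins and of glucocorticoid-responsive genes (1.28 through 8.37 to 16.0 CPM against 7.80 through 45.1 to 93.7, 2.48 ± 0.56), and Thrb, the thyroid hormone receptor beta (6.30 through 11.7 to 16.6 CPM against 12.2 through 27.2 to 40.3, 1.14 ± 0.28). In both genes the ranges of the ages overlapped by a few libraries, and all 8 older libraries for Thrb and 7 for Mt2 lay above the 10m median. Others were Apod, a lipid carrier (0.85 ± 0.22), Car3, carbonic anhydrase 3 of slow fibers (0.89 ± 0.25), the mitochondrial protein gene Mss51 (2.61 ± 0.68), Ppan of ribosome assembly (1.57 ± 0.41) and Tmem57 (0.81 ± 0.20).

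Lower at 30 months were Olfm1, an extracellular olfactomedin protein (10.6 through 17.8 to 70.4 CPM against 1.59 through 6.12 to 17.6, −1.82 ± 0.45), Cpm, carboxypeptidase M (−1.07 ± 0.26), and Pck2, the mitochondrial form of phosphoenolpyruvate carboxykinase (−1.90 ± 0.51). Chchd2, a mitochondrial protein and the most abundant of this group, ranged from 837 through 1142 to 1736 CPM and from 589 through 761 to 1072 (−0.63 ± 0.16). In these 4 genes all 8 older libraries lay below the 10m median, as in Epdr1 (−0.90 ± 0.23), the pseudouridine synthase Pus3 (−1.66 ± 0.43) and BC003965 (−0.93 ± 0.23). Thrb lies on chromosome 14 of GRCm38 from 17660261 to 18038090 and Mt2 on chromosome 8 from 94172664 to 94173568, both on the plus strand.

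**Figure D4:**
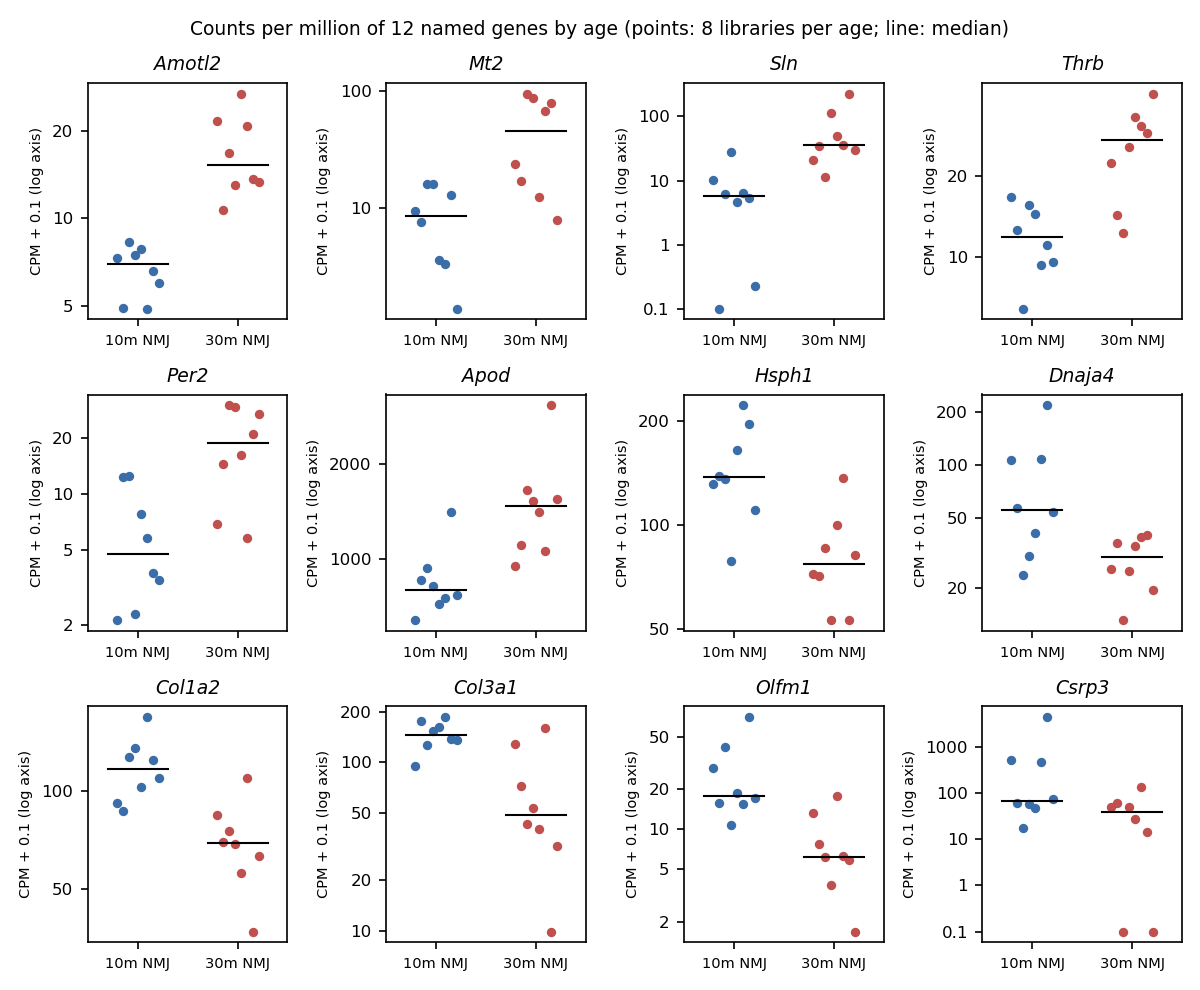
CPM plus 0.1 on log axes of 12 named genes in 8 libraries of 10m NMJ (blue) and 8 of 30m NMJ (red), with lines at the medians. Only Amotl2 shows no overlap between the ages, and Csrp3 shows a single 10m library at 4493 CPM above all others.

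Several differences were much smaller without 1 library. Csrp3, a muscle LIM protein induced by stretch, ranged from 17.4 through 68.8 to 4493 CPM at 10 months, the highest being replicate 7, and from 0 through 38.8 to 132 at 30 months (−4.08 ± 1.19, or −2.08 without that library). The same library weighed on the stress-induced genes Ankrd2 (−1.99, or −1.004 without it) and Atf3 (−2.57, or −1.74 without it). Jchain, the joining chain of secreted immunoglobulins, was at 233 CPM in 30m NMJ replicate 1, against a median of 1.28 CPM at that age (4.60 ± 1.34, or −0.02 without that library).

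Of 18 circadian clock genes 11 were higher (median 0.05), among them the negative limb genes Per2, with medians of 4.68 and 18.5 CPM (1.62 ± 0.45), and Per3, with 24.1 and 38.3 (0.76 ± 0.25). Arntl, which encodes the activator BMAL1, and Nr1d1, which encodes its repressor REV-ERBα, both named after their values were seen, were lower (−1.58 ± 0.67, or −0.86 without 10m NMJ replicate 2, and −0.81 ± 0.31). The time of day of dissection was not given in the sources used here.

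Of 20 targets of ATF4, the factor of the integrated stress response, 15 were lower (median −0.13) and the score of all 8 older libraries lay below the 10m median, though the median fold change was −0.02 without 30m NMJ replicate 5 and −0.07 without 10m NMJ replicate 8. Psat1, an enzyme of serine synthesis, had medians of 5.24 and 0.501 CPM (−2.25 ± 0.85). Of 15 immediate early genes 11 were lower (median −0.52, or −0.29 without 10m NMJ replicate 1 and −0.33 without 10m NMJ replicate 4), 1 of them (Atf3) with a p under 0.05, or 5 without 30m NMJ replicate 4, and Nr4a1 was at −0.63 ± 0.35, or −0.34 without 10m NMJ replicate 1. The 26 metallothioneins and NRF2 targets were even at 13 and 13, and of 21 glucocorticoid-responsive genes 13 were higher (median 0.06, or −0.06 without 30m NMJ replicate 7), with the cochaperone Fkbp5 at 0.63 ± 0.26.

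Which highly expressed genes stayed constant was asked of the 100 genes with the highest mean TPM, which together held 54% of all TPM. A gene was called held when the 95% interval of its fold change lay within 1.5-fold of no change in both directions. This was met by 39 of the 100, against 12.4% of all 12932 genes, whose intervals are wider. With an allowance of 2-fold 86 were held. Of the 100 genes 75 were lower at 30 months (median −0.20), 12 of them with a p under 0.05, and 1 was higher with such a p. The criterion admits small differences, so the held genes and these genes can overlap. Ndufa2, named after its values were seen, was held at −0.29 (interval −0.58 to −0.0096) with an unadjusted p of 0.043 in edgeR.

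Held genes of the contractile apparatus included Acta1, skeletal alpha actin, which ranged from 13348 through 17711 to 23877 CPM and from 13851 through 15913 to 22672 (−0.07 ± 0.18). The fast fiber genes Mylpf (−0.06 ± 0.19), Tnnt3 (−0.08 ± 0.15) and Tnni2 (−0.20 ± 0.16), Tpm1 (−0.11 ± 0.16) and the titin cap Tcap (0.17 ± 0.14) were held as well. So were the calcium buffer Pvalb (−0.14 ± 0.19), myoglobin (Mb, 0.16 ± 0.18), the glycolytic enzymes Aldoa (−0.02 ± 0.14) and Gapdh (−0.07 ± 0.14) and ferritin heavy chain (Fth1, 0.08 ± 0.15). Of the respiratory chain, Cox8b (−0.17 ± 0.15), Uqcr10 (−0.15 ± 0.16), Atp5k (−0.22 ± 0.17) and Atp5e (−0.09 ± 0.16) met the criterion. Of these 15 genes 10 kept it in every alternative tried.

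**Figure D5:**
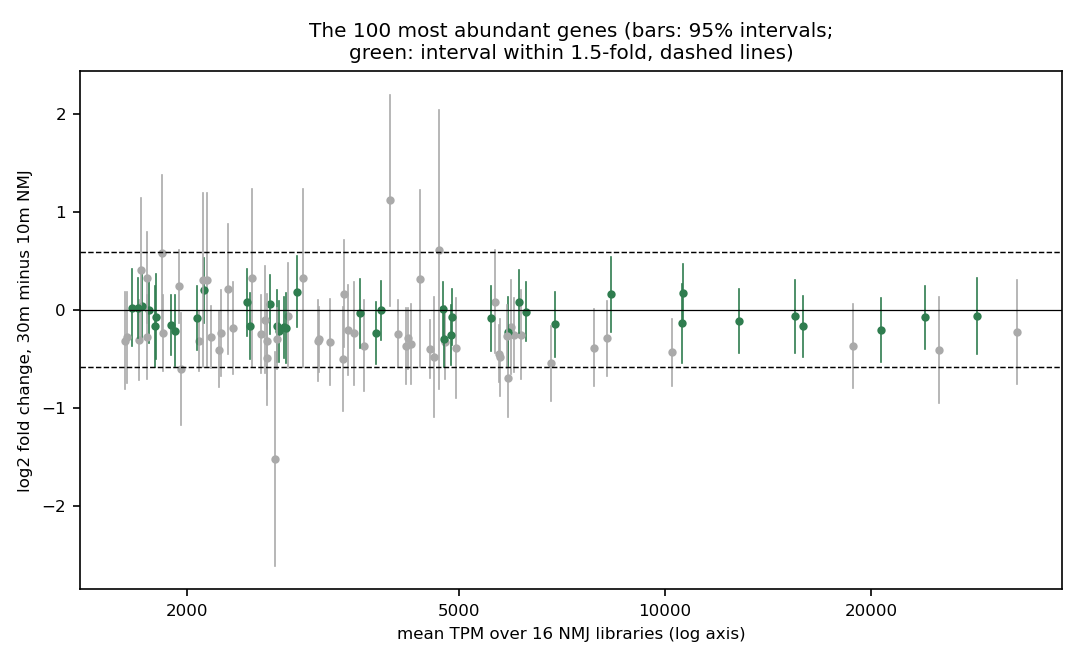
Log2 fold change (30m minus 10m NMJ) with its 95% interval against mean TPM on a log axis for the 100 most abundant genes. Green marks the 39 genes whose interval lies between the dashed lines at 1.5-fold, and 75 of the 100 points lie below 0.

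Failing the criterion does not show a difference. Tnnc2, the most abundant gene and named after its values were seen, was at −0.22 ± 0.25 with a p of 0.386 in edgeR, and its interval was too wide. As each library was left out, its value ran from −0.47 to −0.08. The most abundant genes with small p values were lower, such as Ndufa1 and Uqcr11 above and Cox7a1 (−0.48 ± 0.19). The 1 abundant gene that was higher with a p under 0.05 was Lars2, annotated as mitochondrial leucyl-tRNA synthetase (1.12 ± 0.52). It ranged from 1134 through 4007 to 15129 CPM at 10 months and from 1639 through 11160 to 22583 at 30 months. No gene of the mitochondrial genome was in the tables, and the origin of the reads assigned to Lars2 was not tested. Cox7a1 and Lars2 were named after their values were seen.

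The scatter between libraries was large at both ages. The median SD of a gene's log2 CPM was 0.731 at 10 months and 0.692 at 30 months, and 45.3% of the genes had the larger SD at 30 months, or 36.8% without 30m NMJ replicate 5. In a principal component analysis of the 16 libraries, component 1 held 15.8% of the variance and did not separate the ages (exact permutation test, two-sided; p = 0.438, or 0.571 after adjustment over 5 components). Component 2, with 8.31%, differed between the ages (exact permutation p = 0.00373, adjusted p = 0.0186), as did component 5, with 7.02% (exact permutation p = 0.016, adjusted p = 0.04). In component 2, 30m NMJ replicate 7 stood at −104 and the other older libraries between −16.8 and 3.64. The smallest adjusted p of the 5 components was 0.239 with library totals only and between 0.00155 and 0.136 as each library was left out (exact permutation tests), and it was above 0.05 without 10m NMJ replicates 1, 2 or 3 or 30m NMJ replicate 5.

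The age difference in NMJ regions was set against that in xNMJ regions in one fit of 32 libraries. An interaction of age and region passed in 0 of 13990 genes (0%; 708, or 5.06%, at an unadjusted p under 0.05), while DESeq2 called 9. With a block for the replicate number within each age, 0 passed and 555 had such a p. In the fit without the block, 52.1% of the genes were above 0 and 47.9% below in NMJ regions. There 0 passed and 372 had an unadjusted p under 0.05. In xNMJ regions 53.2% were above 0 and 46.8% below, 6 genes (0.0429%) passed and 1322 (9.45%) had such a p. The collagen list had a median of −0.56 in NMJ and −0.08 in xNMJ regions, heat shock proteins −0.51 and −0.28, and oxidative phosphorylation subunits −0.24 and −0.10. Interferon-responsive genes were at 0.59 and 0.86 and ribosomal proteins at 0.12 and 0.08. Denervation-responsive genes were at 0.39 and 0.65, complement genes at 0.37 and 0.35 and the 5 acetylcholine receptor subunits at 0.13 and 1.12, in the same order. Sln was at 3.06 ± 1.05 in xNMJ regions and Col1a2 at −0.81 ± 0.25, with interaction terms of 0.10 ± 1.42 and 0.08 ± 0.35, and Amotl2 at 0.07 ± 0.39, with an interaction term of 1.32 ± 0.56 (adjusted p = 0.871 in edgeR). The age difference in xNMJ regions included 1 library of 30m xNMJ with 92.8 CPM of Chrne, and its part in these values was not tested.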

How the data were processed

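Groups were taken from the sample titles. The authors trimmed single-end reads with cutadapt 1.9.1 and assigned them with kallisto 0.43.1 to a transcript set of GRCm38 described as protein-coding, although the tables also hold genes annotated as non-coding in GENCODE M21, such as Malat1, giving a fragment length for each library, and summed transcripts by gene. The deposited counts are whole numbers for 24952 genes, not normalized, and the deposited TPM were scaled by the authors for transcript length and library total. No gene of the mitochondrial genome was in the tables, so the share of such counts was not measured.

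Counts of the 16 NMJ libraries were fitted in edgeR 4.0.16 (R 4.3.3) with TMM factors and the quasi-likelihood test, for the 12932 genes with at least 1 CPM in at least 8 libraries. Two-sided p values were corrected over all tested genes (Benjamini-Hochberg) at a threshold of 0.05. Intervals are at 95% and unadjusted. List scores average the members' log2 CPM (prior count 2). Library measures were compared by exact permutation tests. The interaction with region was fitted over all 32 libraries for 13990 genes. Positions came from GENCODE M21 (24918 of 24952 identifiers found), promoters from RefSeq. Figures were drawn with matplotlib 3.10.9.

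Named genes were the 10 with the smallest p in each direction (mean of at least 5 CPM), the 2 with the smallest p of each list, the 15 most abundant held genes and 12 synaptic genes. A gene that the rule named is not reported here. The members and lists were chosen with earlier results of these data known. Alternatives were DESeq2 1.42.0 and its size factors, limma 3.58.1 with library quality weights, library totals only, no filter, a mean of at least 10 CPM, insert size as covariate, the replicate block, log2(TPM + 1) and log2(TPM + 0.1), all 4 groups in one fit, leaving out each library and, added after the data were seen, both libraries numbered 8. Scripts were tested on simulated data. Since no molecular identifiers were used, reads are not independent molecules, and the floors of 3 counts cover counting error alone, while the edgeR intervals include the spread between libraries. Same-group pairs of libraries differed beyond sampling noise (chi-squared per gene 34.1 to 285 over 56 pairs), and none was a duplicate.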

Additional observations from a re-analysis of the deposited data

Results flagged for a closer look

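In groups of 8 libraries, single libraries stood apart from the rest by Dixon's criterion in 28 of 370 groups of values examined (7.57%), where chance gives about 1 in 20. No cause was tested for any of them.

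Some libraries recurred. In 30m NMJ replicate 5 the total was 16420000 counts (the other older libraries held up to 10920000), the score of mitochondrial ribosomal proteins was 6.86, that of macrophage and monocyte markers 1.957, and principal component 1 was 92.71. The same library had a log2 CPM of 14.44 for Myl1, the fast fiber myosin light chain, and of 8.375 for Lrp4, the agrin receptor, whose other older libraries lay at 10.48 or above. In 30m NMJ replicate 7 principal components 2 and 5 were −103.8 and 38.47, and the log2 CPM was 11.59 for Apod, 0.3122 for Pus3 and 2.39 for Ei24. In 10m NMJ replicate 7 the score of denervation-responsive genes was 4.772 (the others reached 3.957) and the log2 CPM of Prdx6 was 7.694.

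Among the younger libraries, replicate 8 had a mean insert size of 52 bp and log2 CPM of −1.958 for C3 and 5.406 for Fnip1. Replicate 4 had 2.707% of its counts in ribosomal protein genes and a log2 CPM of 12.53 for Uqcr11. The log2 CPM was 4.444 for BC003965 in replicate 1, 3.824 for Tmem57 in replicate 2 and 3.935 for Parp14 in replicate 5.

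Among the older libraries, replicate 4 had a score of 4.18 for interferon-responsive genes, with the others at up to 2.819, and a log2 CPM of 6.394 for Nr4a1. Replicate 1 stood at 7.865 for Jchain, with the others at up to 1.249, and at 1.732 for Fcer1g. Replicate 2 had an endothelial score of 3.92 and replicate 3 log2 CPM of −0.9849 for Ankrd2 and 4.878 for Chrnd.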

How the results depend on the processing

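Of 46 list medians, 23 kept their sign in all 27 alternatives, and 1132 of 1242 recomputed medians had the main sign. Of 114 named genes not in the held set, 106 kept their sign in every alternative that tested them, 18 to 28 depending on the gene. The number of genes called was 0 throughout except for 2 with DESeq2 and 1 with log2(TPM + 0.1). Genes with an unadjusted p under 0.05 numbered 372 with all 4 groups in one fit, 1116 with library quality weights, 2646 without a filter, 473 at a mean of at least 10 CPM and 637 to 1057 as each library was left out. Replicate numbers are shared between the ages, but the correlation of same-numbered libraries ran from −0.0694 to 0.139, so they do not pair the samples, and with the replicate block 0 genes were called, 665 had a p under 0.05 and 31 abundant genes were held. The held count was 4 at the narrowest allowance tried, 86 at 2-fold and 137 of the 300 most abundant genes. The interaction count was 9 with DESeq2.

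Medians that moved were those of endothelial markers (−0.1521) and atrophy-related genes (0.07797) on the log2(TPM + 1) scale, fibro-adipogenic (−0.4148) and lymphocyte markers (4.638) at a mean of at least 10 CPM, and mast cell and neutrophil markers with library quality weights (1.522). Lymphocyte markers, 3 genes, ran from 0.00947 to 2.634 as each library was left out and were at 2.446 without both libraries numbered 8. Signs that flipped were those of Jchain with DESeq2 (−0.05108), Cd79a with library quality weights (1.08), insert size (0.2084), the replicate block (0.07308), log2(TPM + 1) (0.02526) and log2(TPM + 0.1) (0.4623), Csf3r with library quality weights (0.1912), log2(TPM + 1) (0.01473) and log2(TPM + 0.1) (0.08959), Chrne with library quality weights (−0.04963), and Chrnd with log2(TPM + 1) (0.1286) and log2(TPM + 0.1) (0.1369). As each library was left out, log2 fold changes ran from −0.03712 to 0.8618 for Chrng, −0.02358 to 4.998 for Jchain, −0.009645 to 0.6911 for Cma1, −0.7082 to 0.5024 for Csf3r, −0.03633 to 0.122 for Etv5, −0.1505 to 0.1529 for Chrne and −0.2849 to 0.005613 for Chrnd. The age difference in total counts ran from −1713700 to 4085.8 and that in insert size from −9.5 to 1.7857 bp. The smallest adjusted p of the principal components (exact permutation) was 0.239 with library totals only and 0.00155 to 0.136 as each library was left out. The causes were not tested. Intervals were wider for genes under 5 CPM than over all genes, and the part of depth in this was not tested.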

Other observations

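The remaining lists add the following values. Of 12 fast fiber contractile genes 10 were lower at 30 months (median log2 fold change −0.08), with Myl1 at −0.37 ± 0.20 (SE) and the myosin binding protein Mybpc2 at 0.32 ± 0.21, and of 9 slow fiber genes 4 were higher and 5 lower (median −0.03, a sign that depended on the setting). Of 22 sarcomere scaffold genes 14 were lower (median −0.09, or above 0 on the log2(TPM + 1) scale), with the alpha actinin gene Actn2 at −0.45 ± 0.22. The 26 genes of calcium release and uptake were even at 13 and 13, with the calcium store protein Casq1 at −0.32 ± 0.15 beside the higher Sln.

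Of 9 muscle stem cell markers 5 were lower (median −0.22, or above 0 without 10m NMJ replicate 7, without a filter and at a mean of at least 10 CPM), with Pax7, their defining factor, at medians of 1.49 and 0.818 CPM (−1.05 ± 0.94, or −0.60 without 10m NMJ replicate 8) and Sdc4 at −0.47 ± 0.26. Of 19 p53 targets 13 were higher (median 0.13, or 0.02 without 30m NMJ replicate 8), with the receptor Eda2r at medians of 10.8 and 21.0 CPM (0.998 ± 0.379). Of 15 cytokines and chemokines 8 were higher (median 0.10, a sign that changed in 7 of 27 alternatives, down to −0.07), with Csf1, the macrophage growth factor, at 1.37 ± 0.59 and above the 10m median in 8 of 8 older libraries, and Vegfa, the vascular growth factor, at −0.33 ± 0.14 and below it in 8 of 8. The 21 endoplasmic reticulum chaperones were even at 10 and 11 (median −0.01, a sign kept in 19 of 27 alternatives), with Sdf2l1 at −1.16 ± 0.61. Of 13 cell cycle genes 9 were lower (median −0.18, or −0.11 without 10m NMJ replicate 1). Adipocyte (7 genes, 0.17), tendon and myotendinous (3 genes, 0.22) and mast cell and neutrophil markers (8 genes, 0.22) changed sign under some settings. None of these genes passed correction in edgeR.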
